A study of Homo sapiens with 4 samples.

Results

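Aminoacyl-tRNA synthetases are the enzymes that join each amino acid to its transfer RNA, and so supply the charged tRNAs that ribosomes read. The 36 genes described here were chosen by gene name, 20 for cytosolic enzymes and 16 for mitochondrial enzymes (names ending in 2), out of 58735 genes in the deposited table, and all 36 were found under the names used below (AARS for the gene now called AARS1, and likewise for the other cytosolic enzymes). RNA-seq measured them in OVCAR8 cells, a human line established from an ovarian carcinoma, with 2 libraries in each of 2 groups. The group shFAM49B received lentiviral GIPZ plasmids with short hairpins against FAM49B, and the group shCON received a scrambled hairpin in the same way. Both groups were grown in RPMI-1640 with fetal bovine serum and antibiotics, and their plasmids were delivered with a Lipofectamine reagent, with harvest 36 h later. The series' design text calls the knockdown stable, whereas the labels' protocol describes transient transfection. Whether a group's libraries are separate cultures is not in the labels. The p-values thus reflect the spread between these samples alone, and that spread may be technical.

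Cells keep separate sets of these enzymes for the cytosol and for mitochondria, all encoded in the nucleus. In the cytosol, 8 of the enzymes listed (DARS, EPRS, IARS, KARS, LARS, MARS, QARS and RARS) sit together in the multisynthetase complex, which the scaffold proteins AIMP1, AIMP2 and EEF1E1 hold in place. GARS and KARS each make both a cytosolic and a mitochondrial enzyme from a single gene. Uncharged tRNA activates the kinase GCN2 (gene EIF2AK4), which leads to translation of the transcription factor ATF4, and genes of many cytosolic synthetases are among the known targets of ATF4.

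ATF4 with C/EBP partners binds an element whose core can be written TGATGNAA, and the promoters of the members were searched for these letters because some cytosolic synthetases are ATF4 targets and others are not. The window was the 250 bases before each RefSeq transcription start (GRCh38.p14), on both strands, and 30 of the 36 members matched a gene in the promoter table. The letters occurred before a start of 4 of these 30 genes: AARS, GARS, IARS and YARS2. AARS, GARS and IARS are among the 12 listed ATF4-bound or ATF4-induced synthetases, of which 10 matched. The letters occurred in 0 of the 6 other cytosolic genes that matched. Among all genes with a promoter listed, 3.89% had at least 1 match. The 4 windows are shown for the shared core, in capitals, on the strand on which it reads TGATGNAA, from chr16:70289675-70289704, chr7:30594834-30594863, chr9:92293692-92293721 and chr12:32756076-32756105.
AARS: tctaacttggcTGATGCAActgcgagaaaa
GARS: ggctcggagcaTGATGAAAtcgccgcgtaa
IARS: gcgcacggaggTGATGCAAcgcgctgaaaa
YARS2: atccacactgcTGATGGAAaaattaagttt
AARS and IARS carried the same 8 letters, TGATGCAA. The core began 187 bases before the start in AARS, 33 in GARS, 13 in IARS and 197 in YARS2. The first 3 matches lay on the strand opposite to the gene, that of YARS2 on the gene's own strand, and a match in these letters is a description of sequence, not evidence of binding.

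The libraries held 16288871 and 16290200 recovered reads in shFAM49B and 15639559 and 16875353 in shCON, of which members took 0.675% to 0.678% in shFAM49B and 0.627% to 0.653% in shCON. FAM49B stood at 1.06 and 1.02 FPKM (fragments for each kilobase of a gene, scaled between libraries) in shFAM49B and at 7.41 and 7.60 FPKM in shCON, 7.21-fold lower, as the labels say (limma adjusted p = 0.00054). Of 10 markers of ovarian serous carcinoma, 6 reached 1 FPKM in any library, KRT8 and KRT18 among them, while PAX8, MUC16, MSLN and KRT7 stayed at or below 0.232 FPKM in each library. The summed level of these 10 genes was 65.3 to 66.0 FPKM in shFAM49B and 125 to 131 FPKM in shCON. Of the 6 tested, EPCAM, KRT18, KRT19 and CDH1 fell, and WT1 and KRT8 did not pass as deposited and were lower as TPM. Lists of other cell types moved with the groups too. The summed level of 6 stratified epithelial genes (KRT5, KRT14, KRT6A, KRT17, KRT13, SFN) was 34.2 to 37.5 FPKM in shFAM49B and 504 to 565 FPKM in shCON, and all 6 fell. That of 6 genes known for their expression in HEK293 cells was 269 to 284 FPKM in shFAM49B and 91.5 to 96.1 FPKM in shCON, with IRS4, NEFL and NEFM higher, PAX2 and LIN28B not past the test (LIN28B lower as TPM) and INA at 0 in all 4 libraries. The fibroblast list had 1 of 6 genes at 1 FPKM or more (COL1A1) and the endothelial list 0 of 4. The part of these changes in the results below was not tested.

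Synthetase transcripts were, as a set, somewhat higher in shFAM49B on the deposited scale, in both compartments. The summed level of the 20 cytosolic enzymes was 1222 ± 17.2 FPKM in shFAM49B and 983 ± 38.2 FPKM in shCON (SD, n = 2 each), and that of the 16 mitochondrial enzymes was 265 ± 2.67 FPKM in shFAM49B and 215 ± 8.15 FPKM in shCON. The mitochondrial sum amounted to 21.7 ± 0.0876% of the cytosolic sum in shFAM49B and to 21.9 ± 0.0195% in shCON. In bulk RNA, fewer cells of a type and less RNA per cell cannot be told apart.

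Levels are compared between genes in FPKM, which divides by gene length. For the members this length covers all annotated exons of the gene together, so orders between genes depend on it. Among cytosolic enzymes the highest mean was that of EPRS in shFAM49B (142 FPKM) and that of AARS in shCON (105 FPKM, with EPRS at 103 ± 6.21, within the spread of AARS). The lowest were CARS in shFAM49B (10.8 FPKM) and HARS in shCON (7.91 FPKM). Most mitochondrial enzymes were lower, with a median over genes of 9.84 FPKM in shFAM49B and 9.26 FPKM in shCON, against 51.0 FPKM in shFAM49B and 38.8 FPKM in shCON for the cytosolic enzymes. IARS2, which charges isoleucine in mitochondria, stood apart from the other mitochondrial enzymes at 105 ± 1.53 FPKM in shFAM49B and 84.9 ± 3.89 FPKM in shCON. Its cytosolic counterpart IARS had 86.4 ± 0.168 FPKM in shFAM49B and 76.1 ± 3.93 FPKM in shCON. In reads IARS was the higher, with 9786 and 9577 in shFAM49B and 9854 and 10041 in shCON. IARS2 had 6769 and 6471 reads in shFAM49B and 6156 and 6325 in shCON. The order in FPKM thus rests on the lengths used, 7401 bases for IARS and 4165 for IARS2. The lowest member was SARS2, at 1.68 ± 0.217 FPKM in shFAM49B and 0.526 ± 0.0342 FPKM in shCON.

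**Figure D1:**
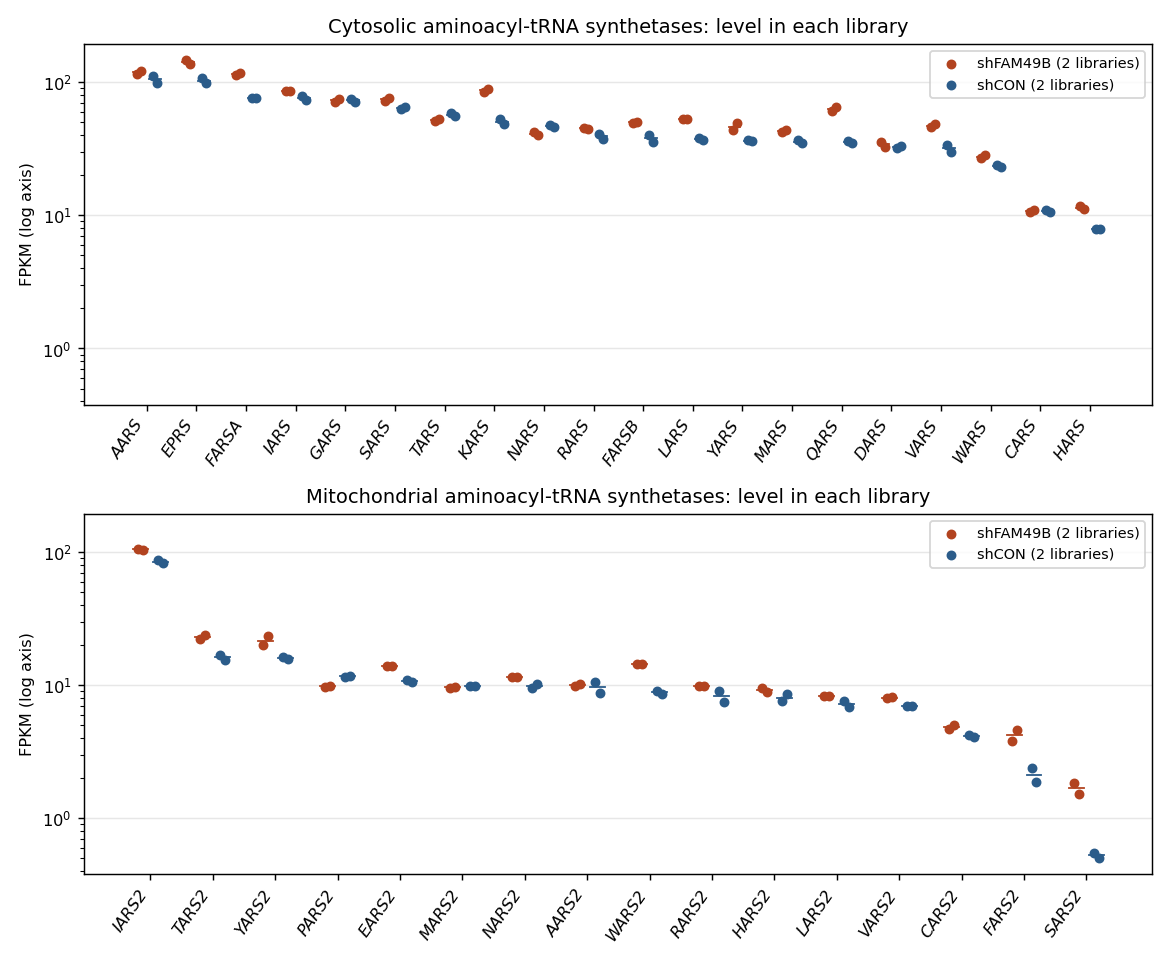
FPKM (log axis) of each synthetase in each library, with the 2 shFAM49B libraries left of the 2 shCON libraries and a line at each mean. Genes run from the highest to the lowest mean in shCON; QARS and KARS show the widest steps among cytosolic enzymes, and SARS2 lies lowest of all, at 1.68 FPKM in shFAM49B and 0.526 FPKM in shCON.

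All 36 members averaged 1 FPKM or more across the 4 libraries and were tested. SARS2 passed this limit only through its level in shFAM49B, so that it had to differ. Of the 20 cytosolic enzymes, 12 rose, 1 fell and 7 did not pass (limma on log2(FPKM + 1), Benjamini-Hochberg adjusted p under 0.05 over all genes tested). Of the 16 mitochondrial enzymes, 8 rose, 1 fell and 7 did not, and without SARS2 7 of 15 rose and 1 fell (median log2 fold change 0.21). For comparison, 26.4% of the 13775 genes tested rose and 15.8% fell, 42.2% in all. The median log2 fold change was 0.24 for cytosolic and 0.22 for mitochondrial enzymes, against 0.05 for all tested genes, a difference of 0.02 between the compartments. Both shFAM49B libraries lay above both shCON libraries for 15 cytosolic and 13 mitochondrial enzymes, and below them for 2 of each, where 43.1% and 31.6% of all tested genes did, 74.7% together.

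The scaling between libraries sets where 0 lies. The deposited values had already been scaled by median ratios, and the summed FPKM of all genes was 295645 ± 6461 in shFAM49B and 249489 ± 2522 in shCON. Rescaled to TPM, with the same sum in each library, log2 fold changes of all genes moved by a median of -0.24, 11.6% of tested genes rose and 31.7% fell. On that scale 6 cytosolic enzymes rose and 4 fell, 4 mitochondrial enzymes rose and 2 fell, and the medians were 0.01 for cytosolic, -0.0011 for mitochondrial and -0.17 for all tested genes. Both medians of the synthetases lay above that of all tested genes on either scale. The share of total FPKM was 0.413 ± 0.00321% in shFAM49B and 0.394 ± 0.0113% in shCON for cytosolic enzymes, and 0.0897 ± 0.00106% in shFAM49B and 0.0861 ± 0.0024% in shCON for mitochondrial enzymes. Changes are therefore given as deposited, with what differs as TPM named for members and lists.

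**Figure D2:**
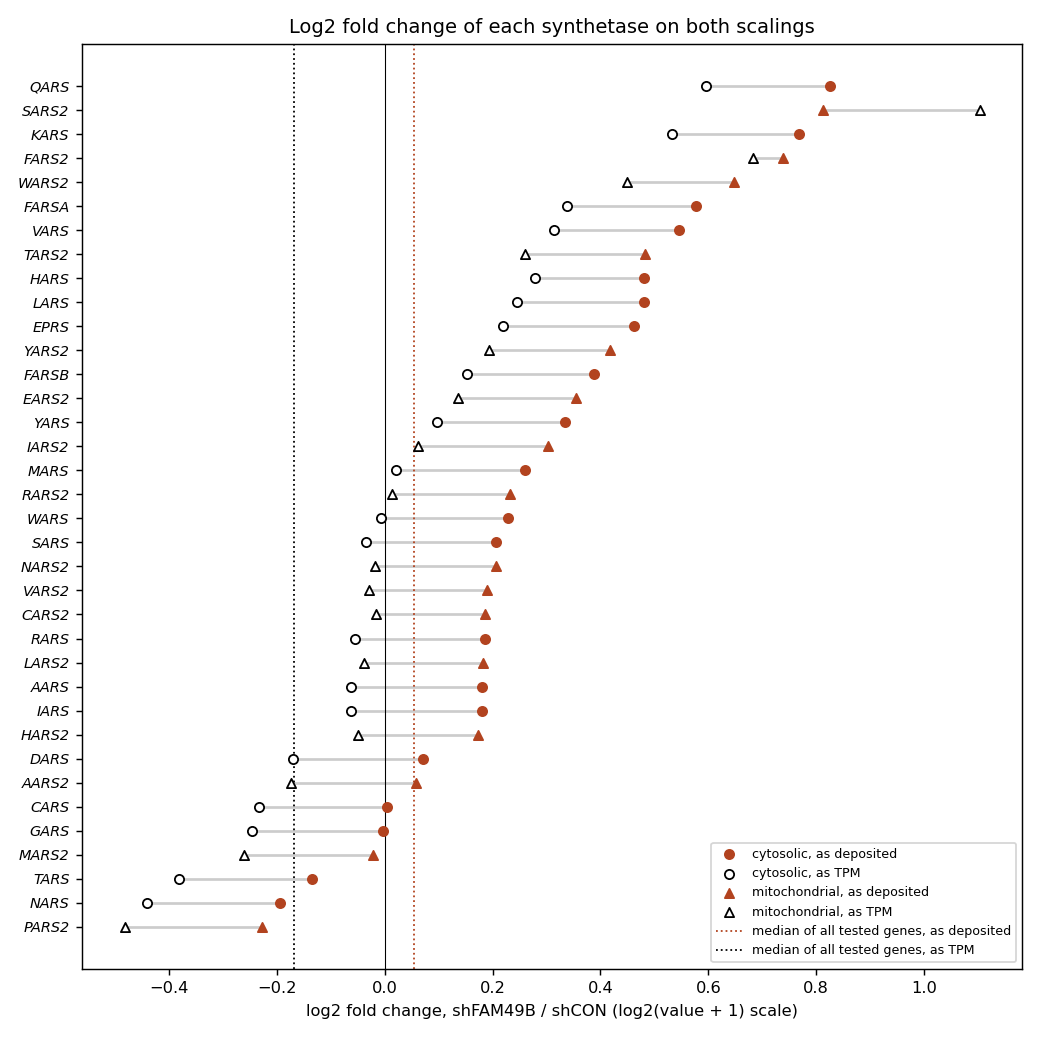
Log2 fold change, shFAM49B over shCON, of each of the 36 enzymes as deposited (filled) and rescaled to TPM (open), circles for cytosolic and triangles for mitochondrial enzymes, on the log2(value + 1) scale. Dotted lines mark the medians of all tested genes, 0.05 as deposited and -0.17 as TPM, and QARS, KARS, FARS2, SARS2 and WARS2 lie right of 0 on both scales while NARS, TARS and PARS2 lie left of it on both.

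The calls of 8 members held under each of the 3 other scalings and under all 11 alternatives to the test, each with a rise in shFAM49B: QARS, KARS, FARSA, VARS, HARS and LARS in the cytosol and WARS2 and TARS2 in mitochondria. The share of all tested genes whose calls held in this way was not computed, so the count of 8 has no background beside it. QARS, which charges glutamine in the cytosol (chromosome 3, 49095932 to 49105135, minus strand, GRCh38), measured 61.3 and 65.6 FPKM in shFAM49B and 35.9 and 34.8 FPKM in shCON. Its shFAM49B libraries lay far above the shCON libraries, with a 1.79-fold rise, the largest among cytosolic enzymes (log2 fold change 0.83, SE 0.0607, limma adjusted p = 0.00167). KARS, which charges lysine in both compartments (chromosome 16, 75627474 to 75648643, minus strand), measured 84.7 and 89.1 FPKM in shFAM49B and 52.9 and 48.4 FPKM in shCON. It rose 1.72-fold without overlap of the groups (log2 fold change 0.77, SE 0.0677, limma adjusted p = 0.00214). FARSA, the alpha subunit of the phenylalanine enzyme, measured 113 and 116 FPKM in shFAM49B and 76.7 and 76.6 FPKM in shCON, higher without overlap (log2 fold change 0.58, limma adjusted p = 0.00222).

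Its partner FARSB, the beta subunit, rose 1.32-fold, to 50.1 ± 0.903 FPKM in shFAM49B against 38.1 ± 3.12 FPKM in shCON, and did not pass as TPM (log2 fold change 0.15, limma adjusted p = 0.119). VARS, the valine enzyme, which associates with the elongation factor EEF1 complex, measured 46.0 and 48.5 FPKM in shFAM49B and 34.0 and 30.1 FPKM in shCON, 1.47-fold higher. HARS, the histidine enzyme, measured 11.8 and 11.1 FPKM in shFAM49B and 7.87 and 7.95 FPKM in shCON, 1.45-fold higher. LARS, the leucine enzyme that also reports leucine to the growth kinase complex mTORC1, measured 53.0 and 52.9 FPKM in shFAM49B and 38.3 and 37.0 FPKM in shCON, 1.41-fold higher. The libraries of a group differed by less than the groups did in each of these 3 genes (limma adjusted p = 0.00315 to 0.00521).

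The other cytosolic rises were smaller or depended on the scaling. EPRS, which carries both the glutamate and the proline enzyme in a single chain, measured 146 and 137 FPKM in shFAM49B and 107 and 98.3 FPKM in shCON, 1.38-fold higher, and narrowly missed the threshold as TPM (log2 fold change 0.22, limma adjusted p = 0.0529). YARS, the tyrosine enzyme, rose 1.27-fold and MARS, the methionine enzyme, 1.20-fold. WARS, the tryptophan enzyme, whose gene interferon gamma induces, rose 1.18-fold to 27.5 ± 1.02 FPKM, and SARS, the serine enzyme, 1.16-fold to 74.4 ± 2.25 FPKM. YARS, MARS, WARS and SARS did not pass as TPM, and the log2 fold changes of WARS and SARS were then -0.01 and -0.04. Of the 11 alternatives, the call was lost under 6 for YARS, 5 for MARS, 9 for WARS and 8 for SARS, for WARS and SARS with each library left out. That of FARSB was lost under 4, among them without either shFAM49B library.

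The remaining cytosolic enzymes did not pass the test or were lower. NARS, the asparagine enzyme (chromosome 18, 57600656 to 57622213, minus strand), measured 42.0 and 39.9 FPKM in shFAM49B and 47.7 and 46.3 FPKM in shCON, and fell 1.15-fold (log2 fold change -0.19, SE 0.0569, limma adjusted p = 0.0426). It lay lower without overlap and stayed past the threshold under every scaling (as TPM -0.44, limma adjusted p = 0.0058), but not when any library was left out (limma adjusted p = 0.0794 to 0.167) or with no filter on low values. TARS, the threonine enzyme, measured 51.2 and 52.6 FPKM in shFAM49B and 58.7 and 55.7 FPKM in shCON, which did not pass as deposited (log2 fold change -0.14, limma adjusted p = 0.111) and did as TPM (-0.38, limma adjusted p = 0.00518). GARS and CARS, the glycine and cysteine enzymes, had log2 fold changes of -0.0024 and 0.0049 and overlapping libraries, and both were called lower as TPM (-0.25 and -0.23). DARS, AARS, IARS and RARS, the aspartate, alanine, isoleucine and arginine enzymes, did not pass, with log2 fold changes of 0.07, 0.18, 0.18 and 0.19.

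**Figure D3:**
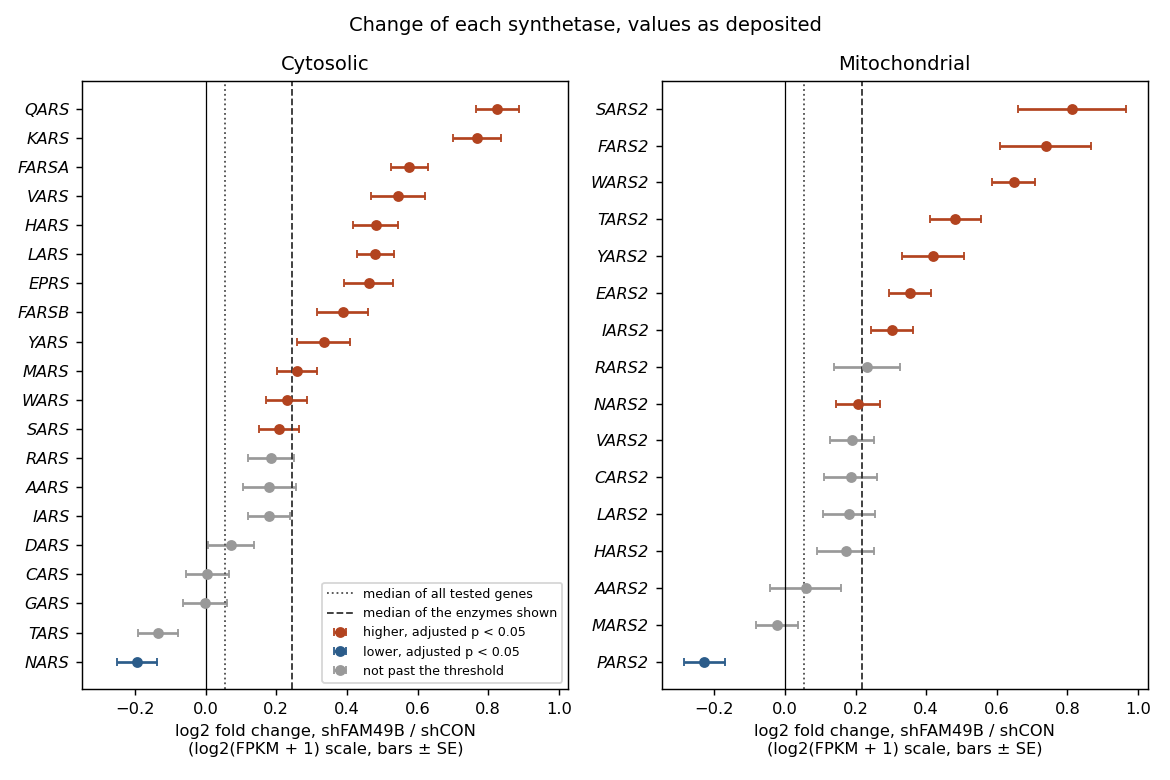
Log2 fold change, shFAM49B over shCON, of each cytosolic (left) and mitochondrial (right) enzyme on the log2(FPKM + 1) scale, values as deposited, bars ± SE from limma, coloured by call. The dashed lines show the medians of 0.24 and 0.22 and the dotted line the median of 0.05 over all tested genes; QARS and SARS2 head the panels and NARS and PARS2 end them.

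Among mitochondrial enzymes, WARS2 (chromosome 1, 119031216 to 119140671, minus strand), which charges tryptophan, measured 14.5 and 14.4 FPKM in shFAM49B and 9.09 and 8.63 FPKM in shCON. It rose 1.63-fold, with libraries of each group close together (log2 fold change 0.65, SE 0.0609, limma adjusted p = 0.00232). TARS2, the threonine enzyme, measured 22.2 and 23.8 FPKM in shFAM49B and 16.9 and 15.4 FPKM in shCON, 1.42-fold higher (limma adjusted p = 0.00625). FARS2, the phenylalanine enzyme, which works as a single chain, measured 3.82 and 4.57 FPKM in shFAM49B and 2.38 and 1.86 FPKM in shCON. Its 1.98-fold rise (limma adjusted p = 0.00937) rested on 283 and 331 reads in shFAM49B and on 194 and 166 in shCON, and it did not pass without shFAM49B replicate 2 or with no filter on low values.

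SARS2, the serine enzyme (chromosome 19, 38915266 to 38930896, minus strand), showed the largest ratio, 3.20-fold, on the fewest reads: 91 and 74 reads (1.84 and 1.53 FPKM) in shFAM49B and 30 and 30 reads (0.550 and 0.502 FPKM) in shCON. Its log2 fold change was 0.81 on the log2(FPKM + 1) scale and 1.10 as TPM. It is given as a description, since the limit on low values selected it through shFAM49B, and its call was lost without shFAM49B replicate 1. YARS2, EARS2, IARS2 and NARS2, which charge tyrosine, glutamate, isoleucine and asparagine, rose 1.36-fold, 1.30-fold, 1.24-fold and 1.17-fold and did not pass as TPM. Of the 11 alternatives, the call was lost under 6 for YARS2, 3 for EARS2, 5 for IARS2 and 10 for NARS2, for NARS2 with each library left out. PARS2, the proline enzyme, measured 9.73 and 9.91 FPKM in shFAM49B and 11.5 and 11.8 FPKM in shCON, and fell 1.19-fold (log2 fold change -0.23, SE 0.0587, limma adjusted p = 0.0298). It lay lower under every scaling but did not pass when any library was left out (limma adjusted p = 0.0876 to 0.138), with no filter on low values or with voom. MARS2, AARS2, HARS2, LARS2, CARS2, VARS2 and RARS2 did not pass, with log2 fold changes of -0.02 to 0.23 (limma adjusted p = 0.0572 to 0.785), and MARS2 was called lower as TPM.

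The cytosolic and mitochondrial enzymes for the same amino acid are set side by side here as a description. The ratio of the cytosolic to the mitochondrial gene within a library does not depend on the library's scaling, and 14 pairs could be formed, with no test made. The mitochondrial gene had the larger log2 fold change in 9 pairs and the cytosolic gene in 5, with a median difference of -0.10. TARS and TARS2 stood furthest apart on the log2(FPKM + 1) scale, with ratios of 2.31 and 2.21 in shFAM49B and 3.47 and 3.60 in shCON. The ratio of SARS to the low SARS2 was 39.6 and 49.7 in shFAM49B and 114 and 131 in shCON. This pair is included in the counts given here, although SARS2 passed the limit on low values only through shFAM49B. It therefore adds no support to those counts. For NARS and NARS2 the ratio was 3.67 and 3.47 in shFAM49B and 5.02 and 4.58 in shCON, and for WARS and WARS2 1.84 and 1.97 in shFAM49B and 2.61 and 2.66 in shCON. In each of these 4 pairs both shFAM49B ratios lay below both shCON ratios, as they did in 8 pairs in all. No share over other gene pairs was computed to set beside these counts. Valine went the other way, with ratios of VARS to VARS2 of 5.77 and 5.93 in shFAM49B and 4.89 and 4.33 in shCON, as did histidine, leucine, methionine and alanine.

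**Figure D4:**
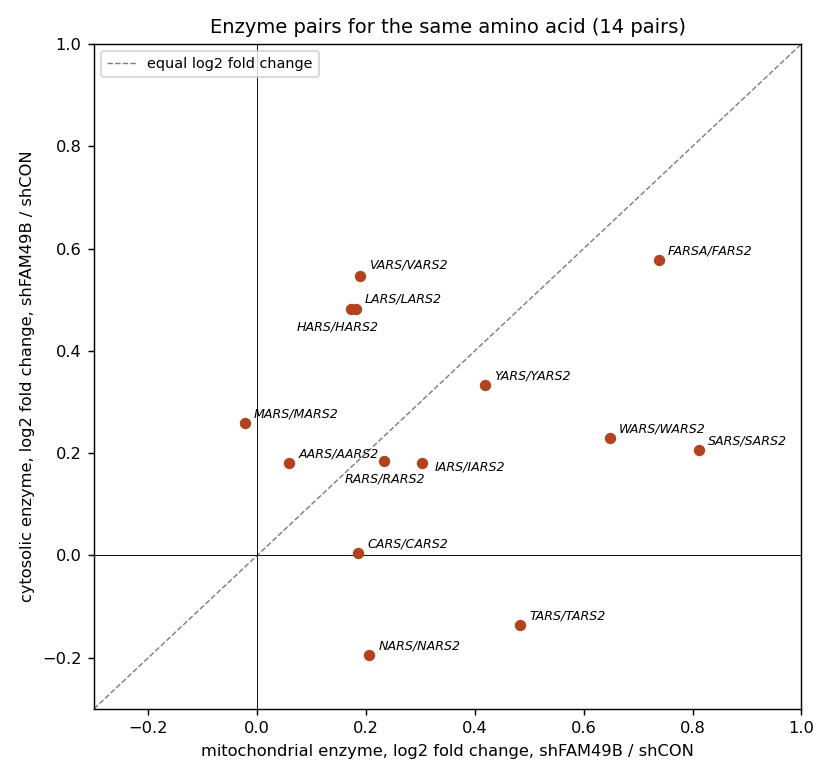
Log2 fold change, shFAM49B over shCON, of the mitochondrial enzyme (horizontal) and of the cytosolic enzyme (vertical) for the same amino acid, 1 point for each of 14 pairs, on the log2(FPKM + 1) scale. Points below the dashed line of equal change are the 9 pairs in which the mitochondrial gene had the larger value, with TARS and TARS2 at -0.14 and 0.48. The pair of SARS and SARS2 is among them, and SARS2 was selected through shFAM49B.

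Enzymes of the multisynthetase complex rose in 5 of 8 cases, and none of its scaffolds passed the test as deposited. Those that rose were QARS, KARS, LARS, EPRS and MARS, none fell, and the median log2 fold change was 0.36 (0.12 as TPM, where 3 rose). The call of MARS was lost with some libraries left out. The share that rose was 62.5% in the complex and 58.3% among cytosolic enzymes outside the complex, against 26.4% of all tested genes. Of the 12 cytosolic enzymes outside it 7 rose and 1 fell, with a median of 0.22 (-0.02 as TPM, where 3 rose and 4 fell), and fewer rose with any library left out. As TPM 37.5% rose and 0% fell in the complex, and 25.0% rose and 33.3% fell outside it. Of all tested genes 11.6% rose and 31.7% fell as TPM, so the share that fell outside the complex was near that of all genes. The scaffold genes AIMP1, AIMP2 and EEF1E1 did not pass, at 16.5 ± 0.95, 17.6 ± 1.01 and 8.88 ± 2.02 FPKM in shFAM49B and 15.6 ± 0.676, 18.3 ± 0.0153 and 7.94 ± 0.307 FPKM in shCON. Their median was 0.07 (-0.16 as TPM, where AIMP2 was lower, log2 fold change -0.30, limma adjusted p = 0.0141). By catalytic fold, 6 of 9 class I enzymes rose (median 0.26) against 5 of 10 class II enzymes with 1 lower (median 0.19), leaving out EPRS, which holds both. As TPM 3 rose and 1 fell in class I (33.3% and 11.1%) and 3 rose and 3 fell in class II (30.0% each), where the share that fell was near that of all tested genes. The difference between the classes was not tested, and both lost calls with any library left out.

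The enzymes listed as ATF4 targets had a lower median change than the other cytosolic enzymes. The list was drawn up with earlier results of these data known, so the difference is a description, and it was not tested. For comparison, 26.4% of all tested genes rose and 15.8% fell as deposited (median 0.05). As TPM 11.6% rose and 31.7% fell (median -0.17). The shares of the ATF4-listed enzymes as TPM were close to these, with 8.33% higher and 33.3% lower. Of these 12 enzymes 6 rose and 1 fell, with a median log2 fold change of 0.19 (-0.05 as TPM, where 1 rose and 4 fell). With any library left out fewer of them rose, as among all tested genes. Of the 8 other cytosolic enzymes 6 rose and none fell, with a median of 0.51 (0.30 as TPM, where 5 rose), and most of these rises held with a library left out. The ATF4-listed enzymes with the promoter letters shown above, AARS, GARS and IARS, had log2 fold changes of 0.18, -0.0024 and 0.18. None passed the test as deposited, but AARS and IARS did with voom (limma adjusted p = 0.0263 and 0.0207). YARS2, the only mitochondrial member with the letters, rose as deposited, and its call was lost under 6 of the 11 alternatives, TPM among them.

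Other genes known to respond to ATF4 mostly fell. Of 19 listed genes 13 fell and 4 rose (21.1%), with a median of -0.51. As TPM 14 fell (73.7%) and 3 rose (15.8%), with a median of -0.77. Among all tested genes 15.8% fell and 26.4% rose as deposited, and 31.7% fell and 11.6% rose as TPM. CHAC1, which degrades glutathione, fell 5.10-fold to 4.83 ± 0.514 FPKM in shFAM49B against 24.6 ± 1.55 FPKM in shCON. The leucine transporter chain SLC7A5 fell 2.46-fold to 91.1 ± 0.348 FPKM in shFAM49B against 224 ± 13.4 FPKM in shCON, and the cystine transporter SLC7A11 fell 3.95-fold. SESN2, a leucine sensor, fell 2.61-fold to 20.5 ± 0.12 FPKM. PHGDH and SHMT2, enzymes of serine and glycine synthesis, rose 1.61-fold and 1.51-fold, and ASNS, which makes asparagine, did not pass (2.69 ± 0.12 FPKM in shFAM49B and 2.55 ± 0.309 FPKM in shCON). The ATF4 transcript itself rose 1.23-fold to 250 ± 6.96 FPKM in shFAM49B against 204 ± 14.3 FPKM in shCON, as did GCN1 and EIF2AK4 of the uncharged-tRNA sensor (1.29-fold and 1.20-fold), though none of these 3 passed as TPM or with no filter on low values, and 0 to 1 passed with a library left out. The stratified epithelial and HEK293 lists above moved in the same libraries.

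**Figure D5:**
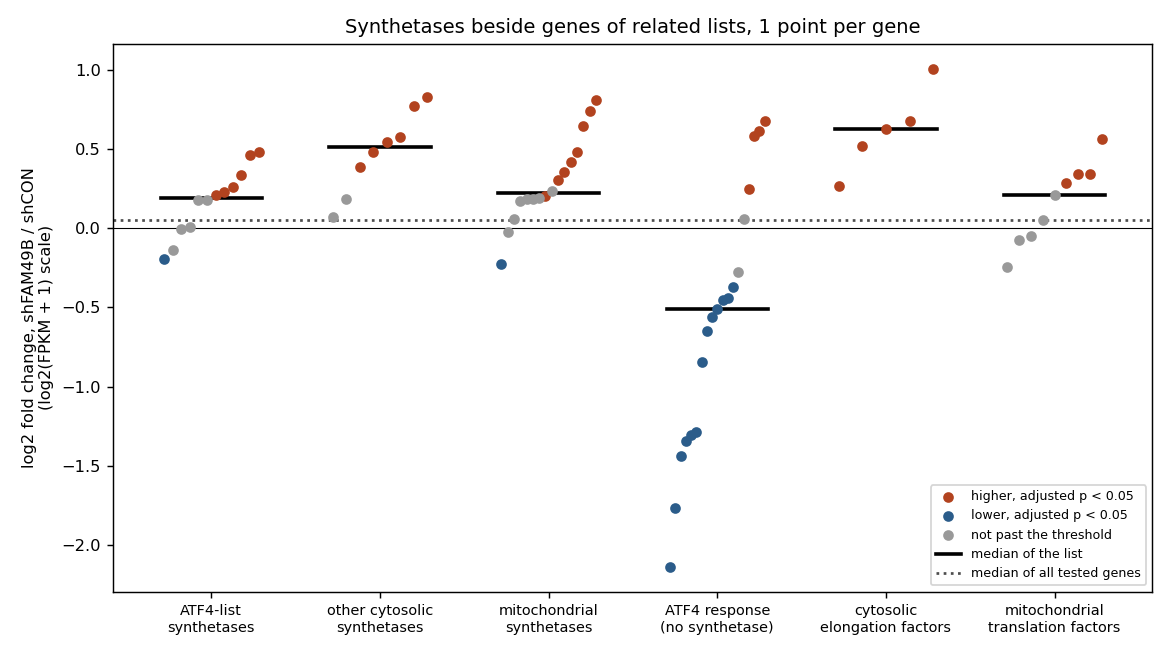
Log2 fold change, shFAM49B over shCON, on the log2(FPKM + 1) scale for each tested gene of 6 lists, coloured by call, with a line at each list's median and a dotted line at the median of all tested genes (0.05). The 12 ATF4-listed synthetases have a median of 0.19 and the other 8 cytosolic enzymes one of 0.51, while the 19 other ATF4-responsive genes have one of -0.51. The lists were chosen with earlier results of these data known.

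Genes that act before or after tRNA charging are given list by list. Of the elongation factors that bring charged tRNA to the cytosolic ribosome or move it on, 5 of 5 tested rose (median 0.63; as TPM 4 rose, median 0.39; 3 without shFAM49B replicate 2; 1 with no filter on low values), among them EEF2, 2.01-fold to 3167 ± 189 FPKM in shFAM49B against 1577 ± 99.4 FPKM in shCON, and EEF1A1, 1.60-fold, while EEF1G was listed at 0 in all 4 libraries. Of 9 mitochondrial translation factors 4 rose and none fell (median 0.21). As TPM 1 rose and 1 fell (median -0.03), and 1 to 2 rose with a library left out. TUFM, the mitochondrial counterpart of EEF1A1, which rose on both scales, stood at 189 ± 11.8 FPKM in shFAM49B and 128 ± 1.32 FPKM in shCON. Mitochondria lack a glutamine enzyme and convert glutamate on the tRNA with an amidotransferase. Of its subunits GATC rose 1.41-fold (not past the threshold as TPM, log2 fold change 0.25, limma adjusted p = 0.0781, nor without either shFAM49B library) and QRSL1 and GATB did not pass, nor did MTFMT, which formylates the product of MARS2. Of 16 genes of tRNA maturation and export 4 rose and none fell (median 0.07), namely the ligase RTCB, the 3′ nuclease ELAC2, TSEN54 and POP1. These 25.0% compare with 26.4% of all tested genes, and as TPM 12.5% rose (RTCB and ELAC2) and 31.2% fell, against 11.6% and 31.7% of all tested genes. The export receptor XPOT did not pass as deposited and was lower as TPM (log2 fold change -0.35, limma adjusted p = 0.013), at 45.2 ± 1.88 FPKM in shFAM49B and 48.6 ± 1.96 FPKM in shCON. Of 3 proofreading genes DTD1 rose 1.55-fold, DTD2 did not pass (lower as TPM) and AARSD1 was too low to test.

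Several members share their locus with other genes, and how the authors assigned shared reads is not given in the sources used here. In GENCODE release 29, 20 of the 36 members share exon bases with another gene, 2 of them over more than 20% of their exon length: SARS2, 46.2% with AC011455.2 on its own strand, and VARS2, 22.0% with GTF2H4 on its own strand. GTF2H4, a subunit of the general transcription factor TFIIH, was at or below 0.184 FPKM in every library, and AC011455.2 at or below 0.0663 FPKM. The levels of SARS2 and VARS2 are uncertain for that reason. MARS shares 5.05% of its exon bases with DDIT3, the stress gene encoding CHOP, on the opposite strand; DDIT3 fell 1.41-fold while MARS rose 1.20-fold. WARS2 shares 4.68% with the antisense gene AL359915.2, which fell to 3.09 and 3.50 FPKM in shFAM49B, against 5.62 and 5.98 FPKM in shCON. Without strand-specific counting, reads from such partners cannot be told apart.

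Of the 36 members 10 start within 1000 bases of an oppositely oriented protein-coding gene. HARS and HARS2 are such neighbours on chromosome 5, with starts that overlap by 436 bases, and only HARS passed (log2 fold changes 0.48 and 0.17). The difference between them was not tested. FARS2 starts 105 bases from LYRM4, a gene of iron-sulfur cluster assembly, which measured 3.29 and 3.37 FPKM in shFAM49B and 1.58 and 1.63 FPKM in shCON (log2 fold change 0.73, limma adjusted p = 0.00411), close to the 0.74 of FARS2. AARS starts 120 bases from DDX19B, which rose by 0.47 on the log2 scale, while SARS2 and MRPS12 overlap by 348 bases at their starts and MRPS12 did not pass (log2 fold change 0.08).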

How the data were processed

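The authors deposited FPKM per gene for 4 libraries, per the file headers. No source used here names an aligner or a counter. GRCm38 and mm10, which are mouse builds, stand in the submitters' processing notes, yet all 58735 identifiers are human and in GENCODE release 29, and 58724 have its coordinates (GRCh38), which were used. FPKM times gene length gave whole reads for 100% of values above 0 (tolerance 0.001 of a read). Median ratios over 20791 genes, those above 0 in each library, gave the implied denominators, so the authors' deposited FPKM had been scaled between libraries. In a gene of 1 kb, 3 reads equal 0.162 to 0.200 FPKM.

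The test was that of limma (3.58.1, R 4.3.3) with trended moderation (2 residual and 3.32 prior degrees of freedom), applied to log2(FPKM + 1) of the 13775 genes averaging 1 FPKM or more, 2-sided, adjusted by Benjamini-Hochberg over all of them at 0.05. Log2 fold changes on this scale understate changes of low genes. Folds are ratios of mean FPKM. Replicates differed by a chi-square of 3.48 (shFAM49B) and 3.90 (shCON) per gene, beyond counting noise, so each was kept. Members were named in full where called, with largest changes first, and list genes by smallest p, up to 4 per list; other genes named (such as SHMT2, ASNS, XPOT and the locus neighbours) were chosen after their values were seen. Members and lists were chosen with earlier results of these data known. Alternatives were the pseudocount, the filter, 3 scalings, voom on recovered reads, a replicate block and leaving out each library. No set tests were made. A leukocyte marker list and a list of interferon-inducible genes are not reported here.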

Additional observations from a re-analysis of the deposited data

How the results depend on the processing

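Counts of calls depended on the scaling, the filter and the libraries used, and signs of small changes on the scaling. As TPM, the counts of all genes higher and lower were 1597 and 4362 (3642 and 2170 as deposited), those of cytosolic enzymes 6 and 4 (12 and 1) and of mitochondrial enzymes 4 and 2 (8 and 1), with medians of 0.0074 and -0.0011 (0.24 and 0.22). With FPKM recomputed from recovered reads and library totals they were 1722 and 4173, 7 and 4, and 4 and 2, with medians of 0.026 and 0.016. With further median ratios 2 cytosolic enzymes were lower and the medians were 0.18 and 0.16. These scalings move all genes by construction. The mitochondrial list keeps SARS2, selected through shFAM49B, in all counts and medians of this section. With no filter on low values (32758 genes) 2185 genes were higher and 1378 lower, 5 mitochondrial enzymes were higher, and 0 enzymes of either compartment were lower. With voom 4286 genes were higher and 2793 lower, 15 cytosolic and 10 mitochondrial enzymes were higher, and 0 mitochondrial enzymes were lower. AARS, IARS, RARS, CARS2, LARS2 and VARS2, not past the test as deposited, were higher with voom. Same-numbered libraries did not deviate together (r = -0.01 across genes), and the replicate block left 0 cytosolic enzymes lower, with NARS, WARS and NARS2 no longer past the threshold. The cause was not tested for the filter, voom or block. Leaving out a library in turn, which costs residual degrees of freedom and assumes the lone library to vary like the other group, gave 1897 to 2495 genes higher and 1027 to 1529 lower, 7 to 9 cytosolic and 4 to 6 mitochondrial enzymes higher and 0 lower in both, medians of 0.22 to 0.28 and 0.22 to 0.30, and a difference of medians from -0.020 to 0.039. FAM49B stayed lower and past the threshold under all 11 alternatives. Signs of small changes turned as TPM for AARS (-0.063), CARS (-0.23), DARS (-0.17), IARS (-0.062), RARS (-0.055), SARS (-0.035), WARS (-0.0065), AARS2 (-0.17), CARS2 (-0.016), HARS2 (-0.050), LARS2 (-0.039), NARS2 (-0.019) and VARS2 (-0.029). They turned relative to library totals for AARS (-0.043), CARS (-0.20), DARS (-0.15), IARS (-0.042), RARS (-0.035), SARS (-0.016), AARS2 (-0.15), HARS2 (-0.029), LARS2 (-0.018) and VARS2 (-0.0094), and with further median ratios for CARS (-0.058) and AARS2 (-0.0039). Over left-out libraries CARS ran from -0.018 to 0.028, GARS from -0.048 to 0.043 and AARS2 from -0.076 to 0.19. Members had 30 to 12212 reads per library, so depth limits mainly SARS2 and FARS2.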
